A study of Mus musculus with 18 samples.

Results

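Genes of the LIF receptor and of STAT3 signalling were followed through RNA-seq libraries of mESCs and of EBs. The 7 genes were chosen by symbol: Lifr, Il6st, Jak1, Stat3, Socs3, Pim1 and Pim3. They are 7 of the 55487 genes counted, and all 7 had enough counts to be tested. The cells are of the line ES-E14TG2a, a mouse embryonic stem cell line. IκBα-KO clones were made with Cas9 and a pair of guide RNAs against exon 1 of Nfkbia, and IκBα-WT clones received scrambled guide RNAs. By the study's methods each clone was grown from a single cell. mESCs (3 IκBα-WT and 3 IκBα-KO libraries) were kept in Serum/LIF on gelatin. EBs, aggregates in which mESCs differentiate, were collected after 48 hr (6 libraries) and 96 hr (6 libraries) in a differentiation medium with serum and without LIF. By the labels each EB stage holds 3 IκBα-WT and 3 IκBα-KO samples. The EB count columns carry only a stage and a code (D4, E14, E2, E3, H7 or H9). The code is in no label and was read as a clone code, and the labels do not pair a code with a genotype. EB libraries were therefore compared by stage, and their genotypes are not analysed here.

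LIF is the cytokine that keeps mESCs undifferentiated in serum. It binds a receptor made of LIFR, the chain specific for LIF and its relatives, and gp130, the chain encoded by Il6st and shared by the IL-6 family. The kinase JAK1, bound to these chains, phosphorylates STAT3, which enters the nucleus and activates genes of the naïve state together with its own inhibitor SOCS3. Pim1 and Pim3 encode serine/threonine kinases whose transcripts are induced by STAT3 in mESCs.

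The total of counts per library ran from 28287582 to 40904247, with IκBα-KO mESCs (34107070 to 40904247) deeper than IκBα-WT mESCs (29423089 to 31091857). Values are CPM, the counts of a gene scaled to a library of common size after TMM scaling. Nfkbia ran from 25.3 to 35.1 CPM in IκBα-WT mESCs and from 9.44 to 10.2 CPM in IκBα-KO mESCs (log2 fold change -1.67, SE 0.14, edgeR adjusted p = 0.00489). The IκBα-KO clones stood apart from the IκBα-WT clones over long stretches of the genome. In 10 Mb windows, the median gene differed from the IκBα-WT mean by more than 0.3 on the log2 scale in 38 of 255 windows in IκBα-KO clone 2 and in 11 windows each in clones 1 and 3, and in 0 windows in the 3 IκBα-WT clones. All 11 windows were the same in clones 1 and 3, so how far these count as independent clones was not tested. In the window of Nfkbia the median gene was at 0.0009, -0.51 and 0.02 in IκBα-KO clones 1 to 3. Nfkbia itself was at -1.60, -1.74 and -1.61 on the same scale. Of the cell type markers, the 6 naïve genes summed to 1740 to 2530 CPM in mESCs, 344 to 1060 CPM in 48 hr EBs and 235 to 682 CPM at 96 hr. The 5 primed epiblast genes summed to 378 to 1000, 859 to 2610 and 1130 to 1930 CPM, with Dnmt3b the largest part in every library. The 6 primitive streak and mesoderm genes summed to 8.44 to 27.3, 11.8 to 74.2 and 16.8 to 1130 CPM. At 96 hr the EB libraries differed widely in the streak and mesoderm sum: E14, H9 and H7 were at 1130, 937 and 612 CPM, and D4, E2 and E3 at 28.7, 30.6 and 16.8 CPM, near the mESC range. T, the defining streak marker, was at 354, 510 and 268 CPM in the first 3 and at most 1.45 CPM in the others. Nfkbia split the codes alike at 96 hr, at 14.5 to 23.0 CPM in the first 3 and 4.97 to 8.53 CPM in the others. At 48 hr it was at 10.7 to 14.9 CPM and 7.31 to 8.65 CPM. Since no label gives the genotype of a code, whether the split is one of genotype was not tested. The 3 general pluripotency genes summed to between 1400 and 1620 CPM in mESCs and 48 hr EBs and between 757 and 1260 CPM in 96 hr EBs. Within that sum Sox2 was lower at 48 hr (165 to 266 CPM) than in mESCs (358 to 501 CPM). Sall4 was higher (281 to 341 against 180 to 266 CPM), and Pou5f1, the largest part, overlapped. The 6 endoderm genes summed to 9.83 to 14.2 CPM in the IκBα-WT mESCs and IκBα-KO clone 2, but to 67.6 and 109 CPM in IκBα-KO clones 1 and 3, and they ran up to 71.0 CPM in 48 hr EBs and 247 CPM in 96 hr EBs. That highest library was E14, which also stood apart in Kdr (315 CPM, against at most 24.7 CPM in the other 96 hr libraries) and Pdgfra (60.1 CPM, against at most 16.3 CPM). The 3 neuroectoderm genes ran up to 58.6, 101 and 216 CPM in mESCs and the EBs of either time, and the 4 fibroblast genes up to 16.0, 15.1 and 29.3 CPM. Nes was the largest part of the neuroectoderm sum, with medians of 26.1, 30.0 and 84.6 CPM. Sox1 (medians 3.19, 1.85 and 1.54 CPM) and Pax6 (4.36, 7.84 and 1.87 CPM) were instead lowest at 96 hr. The part of these cell states in the differences between stages and genotypes was not tested. In bulk libraries fewer cells of a type and less RNA per cell cannot be told apart.

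The sequence just before the start site is shown for Socs3 and Stat3, the members with the largest falls after mESCs were moved to EB medium. The letters searched were TTCNNNGAA, the core that STAT proteins bind, which reads the same on both strands. Windows of 300 bases (RefSeq, GRCm38.p6) around the start sites of all 7 genes were searched. Only that of Socs3 held the letters, at chr11:117969512-117969520, which is 154 to 146 bases before the start. Of 32851 such windows in the genome, 8.3% held them. The stretch of Socs3 is chr11:117969367-117969530 on the minus strand. It lies before the RefSeq start and inside the gene as GENCODE draws it, which extends to 117970047. The stretch of Stat3 is chr11:100939541-100939690, also on the minus strand. Capitals mark the letters searched.
Socs3: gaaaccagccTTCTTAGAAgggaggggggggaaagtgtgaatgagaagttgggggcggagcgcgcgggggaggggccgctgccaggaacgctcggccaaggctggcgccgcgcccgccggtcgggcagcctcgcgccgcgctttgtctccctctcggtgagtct
Stat3: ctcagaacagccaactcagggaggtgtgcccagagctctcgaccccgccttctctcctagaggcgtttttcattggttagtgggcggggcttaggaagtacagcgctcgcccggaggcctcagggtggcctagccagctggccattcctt
A match is a run of letters and no record of binding, and the windows without one say nothing about STAT3 elsewhere at those genes.

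Stage was compared first, since LIF was present for mESCs and absent for EBs. Medium, LIF, growth as aggregates and time changed together and cannot be told apart. In 48 hr EBs against mESCs, 4 of the 7 genes fell (Stat3, Socs3, Pim3 and Lifr) and none rose. None was higher at an unadjusted edgeR p under 0.05 or with DESeq2 either. Of all 25318 genes tested in the 18 libraries, 13.0% fell and 14.9% rose. With a fold over 2 as well, 3 of the 7 genes fell, against 4.95% of all genes.

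**Figure D1:**
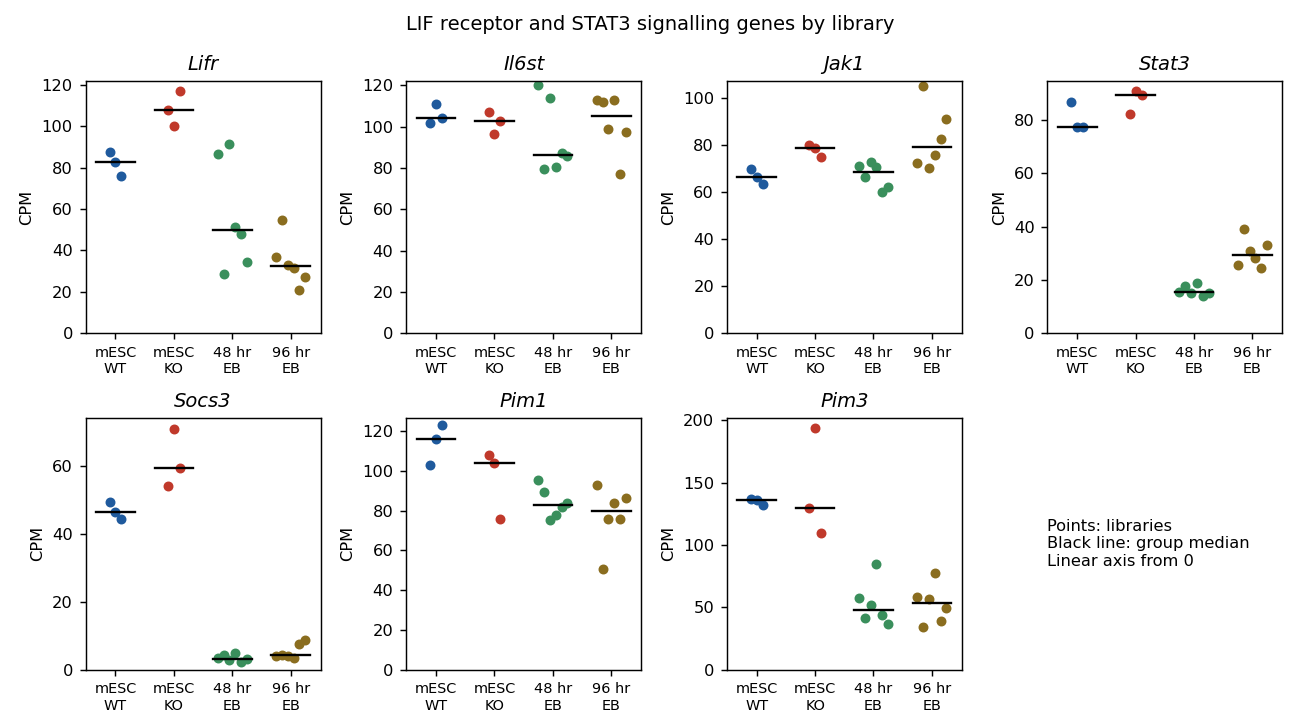
CPM (vertical axis, linear from 0) of the 7 genes in each library, for IκBα-WT and IκBα-KO mESCs and for EBs of both time points, with a line at each group's median. Stat3, Socs3 and Pim3 lay lower in all 12 EB libraries than in any of the 6 mESC libraries, while Il6st and Jak1 overlapped between stages.

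Socs3 (ENSMUSG00000053113, chr11:117966079-117970047), the feedback inhibitor of the receptor and its kinase, had the largest fall of the 7. It stood at 49.4, 46.4 and 44.3 CPM in IκBα-WT clones 1 to 3 and at 54.1, 70.8 and 59.4 CPM in IκBα-KO clones 1 to 3. In 48 hr EBs its lowest value was 2.19 CPM, the median 3.30 and the highest 4.85 CPM. Every 48 hr library was thus far below every mESC library, with no overlap. The log2 fold change was -3.95 (SE 0.26, edgeR adjusted p = 9.26e-09), a 15.4-fold fall, and 30 genes of 25318 had a lower value (0.118%).

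Stat3 (ENSMUSG00000004040, chr11:100885098-100939540), the transcription factor of the pathway, was at 86.8, 77.6 and 77.4 CPM in IκBα-WT clones and at 82.5, 90.9 and 89.6 CPM in IκBα-KO clones. Its transcript was at 14 CPM in the lowest 48 hr library, 15.3 at the median and 18.8 CPM in the highest. The spread within 48 hr EBs was 1.34-fold, against a fall of 5.25-fold from mESCs (log2 fold change -2.39, SE 0.11, edgeR adjusted p = 4.29e-10). The values of Stat3 are transcript levels, and the phosphorylation through which STAT3 acts is not seen in them.

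Pim3 (ENSMUSG00000035828, chr15:88862186-88865726) stood at 137, 136 and 132 CPM in IκBα-WT clones and at 130, 194 and 110 CPM in IκBα-KO clones. In 48 hr EBs it ran from 36.6 CPM through a median of 47.7 to 85.1 CPM, still below every mESC library. The log2 fold change was -1.41 (SE 0.21, edgeR adjusted p = 6.84e-05). Pim1 (ENSMUSG00000024014, chr17:29490753-29496112), the other kinase of the family among the 7, differed less. It had 103, 116 and 123 CPM in IκBα-WT clones, 108, 104 and 75.7 CPM in IκBα-KO clones, and 75.0, 82.7 and 95.5 CPM as the lowest, median and highest of 48 hr EBs. The stages overlapped at IκBα-KO clone 3, and the difference did not pass the test (log2 fold change -0.32, SE 0.13, edgeR adjusted p = 0.0626), although it did under other processing (adjusted p = 0.0322 with DESeq2). An antisense gene, Gm26885, covers 14.5% of the exon bases of Pim1, and reads there cannot be assigned without a strand setting, which the sources used here do not give.

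The receptor chains and their kinase come before STAT3 in the pathway. Lifr (ENSMUSG00000054263, chr15:7090614-7197489), the chain that gives the receptor its specificity, stood at 87.6, 82.7 and 75.8 CPM in IκBα-WT clones and at 108, 100 and 117 CPM in IκBα-KO clones. In 48 hr EBs it was the most spread of the 7 genes, from 28.6 CPM through a median of 49.6 to 91.4 CPM, a 3.20-fold range. The libraries of clone codes D4 (86.4 CPM) and E2 (91.4 CPM) lay within the range of mESCs, and the other 4 lay below it. E3 (51.4 CPM) lay just above H7 (47.8), H9 (34.3) and E14 (28.6 CPM), the codes with high streak and mesoderm sums later. At 48 hr Pim3 and Jak1 were also higher in D4, E2 and E3. Pim3 was at 51.6 to 85.1 against 36.6 to 43.8 CPM, and Jak1 at 70.6 to 72.9 against 59.9 to 66.4 CPM. Il6st, Stat3, Socs3 and Pim1 overlapped between these groups of codes. The cause of the split was not tested. The log2 fold change of Lifr was -0.75 (SE 0.26, edgeR adjusted p = 0.0407). The call was lost in 8 of 18 fits that left out 1 library (adjusted p up to 0.0835, without IκBα-KO clone 3) and against IκBα-WT mESCs alone (adjusted p = 0.274).

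Il6st (ENSMUSG00000021756, chr13:112464070-112510086), encoding gp130, ran from 96.5 to 111 CPM over the 6 mESC libraries and from 79.6 through 86.4 to 120 CPM over the 48 hr EBs. Its groups overlapped, and the difference of -0.14 on the log2 scale (95% interval -0.37 to 0.09, edgeR adjusted p = 0.376) did not pass the test. Jak1 (ENSMUSG00000028530, chr4:101152367-101265282) ran from 63.6 to 80.2 CPM in mESCs and from 59.9 through 68.5 to 72.9 CPM in 48 hr EBs. Its log2 fold change was -0.11 (95% interval -0.31 to 0.09, edgeR adjusted p = 0.443). For both genes the interval leaves out a change of the size seen in Pim3.

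**Figure D2:**
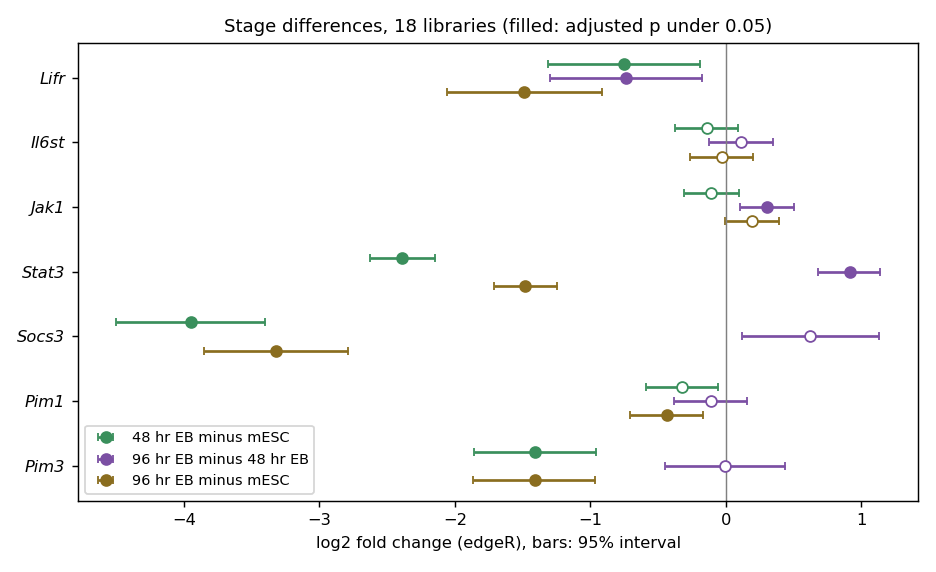
Log2 fold changes (horizontal axis) of the 7 genes in the 3 stage comparisons from 1 edgeR fit of 18 libraries, with 95% intervals as bars and filled points where the adjusted p is under 0.05. Socs3 (-3.95) and Stat3 (-2.39) lay farthest from 0 in 48 hr EBs, and Stat3 moved back by 0.91 from 48 to 96 hr.

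The 96 hr EBs were then compared with the 48 hr EBs, to follow the genes later in differentiation. Stat3 and Jak1 rose and Lifr fell, so that 2 of the 7 genes rose (13.9% of all genes tested rose) and 1 fell (13.8% of all genes fell). With a fold over 2 as well, 0 of the 7 passed, against 11.9% of all genes in either direction. EB libraries of 1 clone code were taken as paired by their names, so the change within each code is given beside the test.

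Stat3 rose to 24.3 CPM in the lowest 96 hr library, 29.5 at the median and 39.3 CPM in the highest, above every 48 hr library. The log2 fold change was 0.91 (SE 0.11, edgeR adjusted p = 2.51e-05), and the rise was seen in 6 of 6 clone codes, by 0.58 in E3 to 1.15 in H9. All 96 hr libraries stayed below all mESC libraries. Socs3 ran from 3.36 CPM through 4.25 to 8.86 CPM and did not pass the test (log2 fold change 0.62, SE 0.24, edgeR adjusted p = 0.0564; 0.0379 with DESeq2). Its differences were unequal between codes: 1.78 in H7 and 1.51 in H9, and between -0.52 and 0.47 in the other 4, among them E14, the third code with high streak and mesoderm markers.

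Jak1 ran from 70.3 through 79.0 to 105 CPM in 96 hr EBs, which overlapped with 48 hr EBs. Its log2 fold change was 0.30 (SE 0.09, edgeR adjusted p = 0.0234). The differences were 0.66 in E14, 0.55 in H9 and 0.46 in H7, and at most 0.10 in the other 3 codes. The first 3 are the codes whose streak and mesoderm genes summed to 612 CPM or more at 96 hr, and the part of that cell state was not tested. The call was lost without the 96 hr library of H9 (adjusted p = 0.0573) and without both libraries of E14 (adjusted p = 0.0829, an alternative chosen after seeing the data).

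Lifr ran from 20.7 through 32.4 to 54.4 CPM at 96 hr, and the stages overlapped. It was lower at 96 hr than at 48 hr in 5 of 6 clone codes, with log2 differences of -1.46 to -0.34, and higher by 0.93 in E14, whose 96 hr library stood apart in its mesoderm and endoderm markers and also held the highest Jak1 of that stage. The log2 fold change of -0.74 (SE 0.26) passed the test by a small margin (edgeR adjusted p = 0.0451). With the clone code as a block it was -0.66 (edgeR adjusted p = 0.141), and the call was lost in 14 of 18 fits that left out 1 library (up to 0.140, without the 48 hr library of D4). Without both libraries of E14 it was -1.06 (edgeR adjusted p = 0.00426). Il6st, Pim1 and Pim3 did not pass the test, with log2 fold changes of 0.11, -0.11 and -0.01. Pim1 was at 50.7 CPM in the same 96 hr library of E14 and between 75.5 and 92.9 CPM in the other 5.

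**Figure D3:**
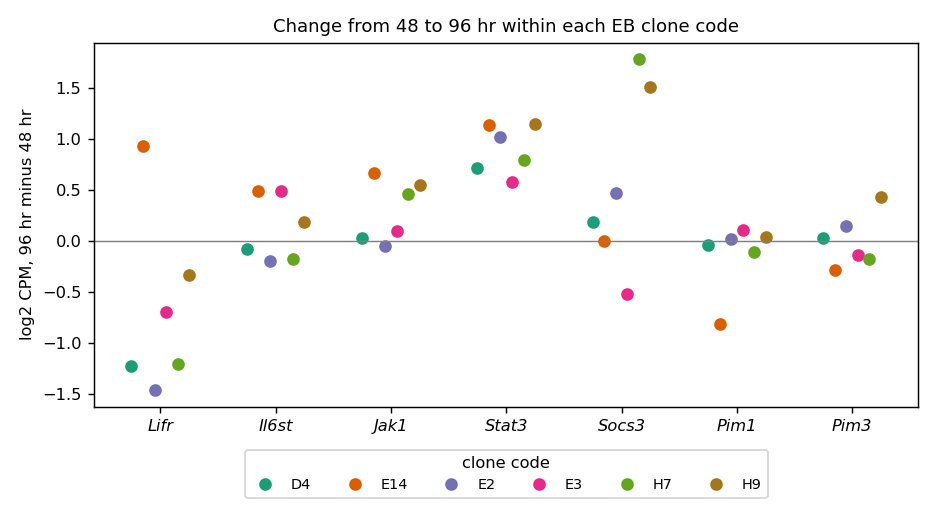
Log2 CPM at 96 hr minus 48 hr (vertical axis) for the 7 genes, 1 point for each of 6 EB clone codes, with a line at 0. All 6 points of Stat3 lie above 0 (0.58 to 1.15), whereas Lifr is at 0.93 in E14 and below 0 in the other 5.

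At 96 hr against mESCs, 5 of the 7 genes were lower (Socs3, Lifr, Stat3, Pim3 and Pim1) and none rose. None was higher at an unadjusted edgeR p under 0.05 or with DESeq2 either. Of all genes tested, 20.3% fell and 22.7% rose. With a fold over 2 as well, 4 of the 7 fell, against 9.65% of all genes. This comparison uses the same mESC libraries as that at 48 hr, and the values of each are given for their own sake. Socs3 stood far below mESCs (log2 fold change -3.32, SE 0.25, edgeR adjusted p = 2.55e-08). Stat3 was 2.79-fold lower (log2 fold change -1.48, SE 0.11, edgeR adjusted p = 1.93e-08). Thus Stat3 had risen since 48 hr and still had not reached the mESC level in any library.

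Pim3 ran from 34.0 through 53.2 to 77.2 CPM at 96 hr, below all mESC libraries (log2 fold change -1.41, SE 0.21, edgeR adjusted p = 3.84e-05). Its D4, E2 and E3 libraries (57.0 to 77.2 CPM) lay above those of E14, H7 and H9 (34.0 to 49.4 CPM). At 96 hr Jak1 (70.3 to 75.6 against 82.4 to 105 CPM) and Socs3 (3.36 to 4.13 against 4.38 to 8.86 CPM) were in the reverse order. Lifr, Il6st, Stat3 and Pim1 overlapped between these groups of codes. Lifr was below all mESC libraries as well (log2 fold change -1.49, SE 0.27, edgeR adjusted p = 0.000228), and its call was kept in all 18 fits that left out 1 library. Pim1 fell by 0.44 on the log2 scale (SE 0.13, edgeR adjusted p = 0.00906), with overlapping stages, and did not pass against IκBα-KO mESCs alone (-0.29, adjusted p = 0.159). Il6st differed by -0.03 (95% interval -0.26 to 0.20, edgeR adjusted p = 0.856) and Jak1 by 0.20 (95% interval -0.004 to 0.40, edgeR adjusted p = 0.101).

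Divided by exon length, the median level in mESCs was highest for Pim3 (55.2 CPM per kb), followed by Pim1 (31.5) and Socs3 (17.9 CPM per kb). Jak1 came next, just above Il6st (9.34), Stat3 (8.88) and Lifr (8.72 CPM per kb). These last 4 overlapped in their ranges over libraries, as did Pim1 and Socs3. In 48 hr EBs, on the same scale, Pim1 (24.6) and Pim3 (19.7) stood first, Jak1 (9.48), Il6st (7.78) and Lifr (4.60) followed, and Stat3 (1.60) and Socs3 (1.14 CPM per kb) were last. The receptor chains and the kinase were thus close to Stat3 per length in mESCs, while in 48 hr EBs all libraries had more Il6st and Jak1 than Stat3. At 96 hr the medians of Stat3 (3.09) and Lifr (3.00 CPM per kb) lay together again, above Socs3 (1.47 CPM per kb).

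A list of 49 other genes of the pathway, from ligands to STAT3 targets, gives the surroundings of the 7. Il6, a ligand of gp130, had under 10 counts over the libraries and was not tested. In 48 hr EBs 6 of the 48 genes tested rose and 18 fell, with a median log2 fold change of -0.31 against 0.004 over all genes tested. Of all genes tested, 14.9% rose and 13.0% fell. Among the 13 STAT3 targets 8 fell and 2 rose (median -1.56), among the 5 other STAT genes 3 fell, and among the 14 inhibitors 4 fell and 1 rose. Klf4, a transcription factor of the naïve state, was at 110 to 164 CPM in mESCs and at 3.78 to 14.5 CPM in 48 hr EBs (log2 fold change -3.93, edgeR adjusted p = 1.15e-07). Bcl3, an atypical IκB protein, fell by 3.35 on the log2 scale (edgeR adjusted p = 1.33e-06). Klf5 and Tfcp2l1, transcription factors that sustain self-renewal, fell by 2.20 each (edgeR adjusted p = 9.07e-08 and 8.34e-05), and Junb, an AP-1 subunit, by 2.12 (edgeR adjusted p = 4.00e-06).

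Of the genes that rose at 48 hr, Cntfr, the receptor chain for the LIF relative CNTF, had the largest log2 fold change (2.55, edgeR adjusted p = 2.66e-07). It was at 3.61 to 6.43 CPM in mESCs and at 21.1 to 37.8 CPM in 48 hr EBs, with no overlap. Pim2, the remaining PIM kinase, rose by 2.07 on the log2 scale (edgeR adjusted p = 0.00345), from 33.4 to 217 CPM in mESCs to 136 to 726 CPM in 48 hr EBs, with overlap. Pim2 thus rose, while Pim3 fell and Pim1 did not pass the test. Lif itself did not pass in any comparison and lay between 3.57 and 13.5 CPM over all 18 libraries.

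From 48 to 96 hr 11 of the 48 genes rose and 6 fell (median log2 fold change -0.05, against -0.03 over all genes tested). Of all genes tested, 13.9% rose and 13.8% fell. Stat5b, encoding a STAT activated by other cytokines and hormones, rose from 3.90 to 8.48 CPM at 48 hr to 16.1 to 47.3 CPM (log2 fold change 2.22, edgeR adjusted p = 1.83e-05). Its neighbour Stat5a rose by 1.49 (edgeR adjusted p = 0.00155) and the feedback inhibitor Cish, though not among the largest, by 0.69 (edgeR adjusted p = 0.00742). Junb rose by 1.90 (edgeR adjusted p = 4.78e-05), back to 8.90 to 19.5 CPM. Tfcp2l1 fell further, by 1.11 (edgeR adjusted p = 0.0184), and so did Zfp57, a zinc finger protein that guards imprints, by 1.14 (edgeR adjusted p = 0.00814). Pramel7 fell by 2.73 (edgeR adjusted p = 0.0486) and Osmr rose by 1.84 (edgeR adjusted p = 0.0194), the latter on 0 to 10 counts per library. Pramel7 was widely spread in 48 hr EBs, from 0.205 to 12.4 CPM, and had 0 to 66 counts per library at 96 hr. Stat3 and Stat5a overlap over 72 bases on opposite strands, which is 0.756% of the exon bases of Stat3.

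At 96 hr against mESCs 11 of the 48 genes rose and 16 fell (median log2 fold change 0.01, against -0.01 over all genes tested). Of all genes tested, 22.7% rose and 20.3% fell. Of the 13 STAT3 targets 9 fell and 1 rose (median -2.30). The largest falls were those of Pramel7 (-4.67, edgeR adjusted p = 0.00164), Klf4 (-4.50, edgeR adjusted p = 2.19e-08), Bcl3 (-3.41, edgeR adjusted p = 6.06e-07), Tfcp2l1 (-3.31, edgeR adjusted p = 1.14e-06), Zfp57 (-2.71, edgeR adjusted p = 2.10e-06) and Klf5 (-2.61, edgeR adjusted p = 1.14e-08). That of Pramel7 rests on 0 to 66 counts per 96 hr library and has an SE of 1.06. Pim2 was the target that rose, by 2.57 (edgeR adjusted p = 0.000409). Junb, which had fallen at 48 hr, did not pass the test here. Sbno2 lay between 39.4 and 49.9 CPM in all 18 libraries and passed in none of the 4 comparisons.

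**Figure D4:**
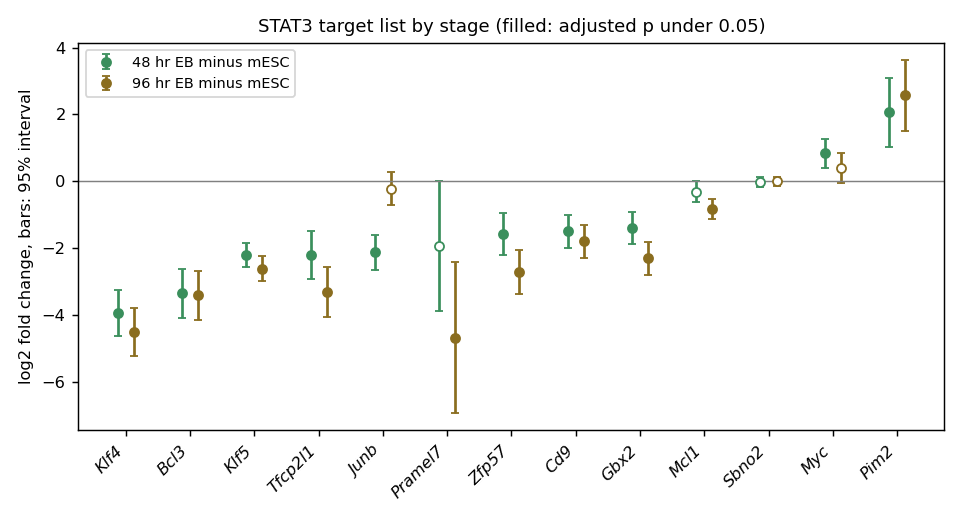
Log2 fold changes against mESCs (vertical axis) of the 13 other STAT3 targets in 48 hr and 96 hr EBs, with 95% intervals as bars and filled points where the adjusted p is under 0.05. Of the 13 genes, 8 fell at 48 hr and 9 at 96 hr, while Pim2 was higher by 2.07 and 2.57.

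The genotypes were compared in mESCs in Serum/LIF, where 1 of the 7 genes rose in IκBα-KO clones and none fell. At an unadjusted edgeR p under 0.05 Lifr, Socs3 and Jak1 were higher. None was lower at that threshold or with DESeq2. Of the 21843 genes tested in the 6 libraries, 3.09% rose and 1.69% fell, and 1.70% passed with a fold over 2 in either direction, which none of the 7 did. Lifr was the gene that rose, by 0.40 on the log2 scale (SE 0.09, edgeR adjusted p = 0.0466), and the lowest IκBα-KO clone (100 CPM) was above the highest IκBα-WT clone (87.6 CPM). The call was lost with each library other than IκBα-KO clone 2 left out (adjusted p up to 0.208, without IκBα-WT clone 3), and stood at adjusted p = 0.000726 without that clone, a fit whose IκBα-KO group is clones 1 and 3 with their shared windows. With the counts of these clones summed as 1 library, an alternative chosen after seeing the data, Lifr was at 0.37 (edgeR adjusted p = 0.116). Markers differed between the genotypes too. The primed epiblast genes summed to 378 to 452 CPM in IκBα-KO and 632 to 1000 CPM in IκBα-WT clones. Dnmt3b made up most of these sums (354 to 426 and 577 to 887 CPM). Fgf5, Pou3f1, Otx2 and Lef1 were also lower in each IκBα-KO clone than in each IκBα-WT clone. The naïve genes summed to 2110 to 2530 and 1740 to 2030 CPM, but did not all differ alike. Zfp42 and Klf2 were higher in each IκBα-KO clone than in each IκBα-WT clone. Dppa3 was lower, at 13.9 to 31.4 against 35.4 to 50.9 CPM, and Esrrb, Nanog and Tbx3 overlapped. The clones with raised endoderm genes, 1 and 3, had the highest Lifr (108 and 117 CPM), and clone 2, without them, was at 100 CPM.

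Chromosome 15 holds Lifr and Pim3, and in IκBα-KO clone 2 all 9 of its windows had a median gene above the IκBα-WT mean, by 0.29 to 0.62 on the log2 scale. In the window of Lifr the median gene was at -0.07, 0.38 and -0.11 in IκBα-KO clones 1 to 3, while Lifr itself was at 0.41, 0.27 and 0.52. Lifr was therefore above its surroundings in clones 1 and 3 and below them in clone 2. With the window medians as an offset its log2 fold change was 0.37 (edgeR adjusted p = 0.274). Pim3, in another window of chromosome 15 with medians of 0.03, 0.62 and -0.03, was at -0.04, 0.50 and -0.28, so that its highest mESC value (194 CPM) came from the clone whose window was also high. It did not pass the test (log2 fold change 0.10, SE 0.17, edgeR adjusted p = 0.797).

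Socs3 and Jak1 were also higher in each IκBα-KO clone than in each IκBα-WT clone, without passing the test. Socs3 differed by 0.39 on the log2 scale (SE 0.11, edgeR adjusted p = 0.0722) and Jak1 by 0.22 (SE 0.07, edgeR adjusted p = 0.126). Socs3 passed with DESeq2 (adjusted p = 0.0285). The window medians of both genes were between -0.03 and 0.07 in all 3 IκBα-KO clones. Stat3 differed by 0.12 (95% interval -0.10 to 0.34, edgeR adjusted p = 0.427), Il6st by -0.05 (95% interval -0.26 to 0.15, edgeR adjusted p = 0.738) and Pim1 by -0.25 (95% interval -0.62 to 0.11, edgeR adjusted p = 0.307). IκBα-KO clone 3 had less Pim1 (75.7 CPM) than the other 5 mESC libraries (103 to 123 CPM).

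**Figure D5:**
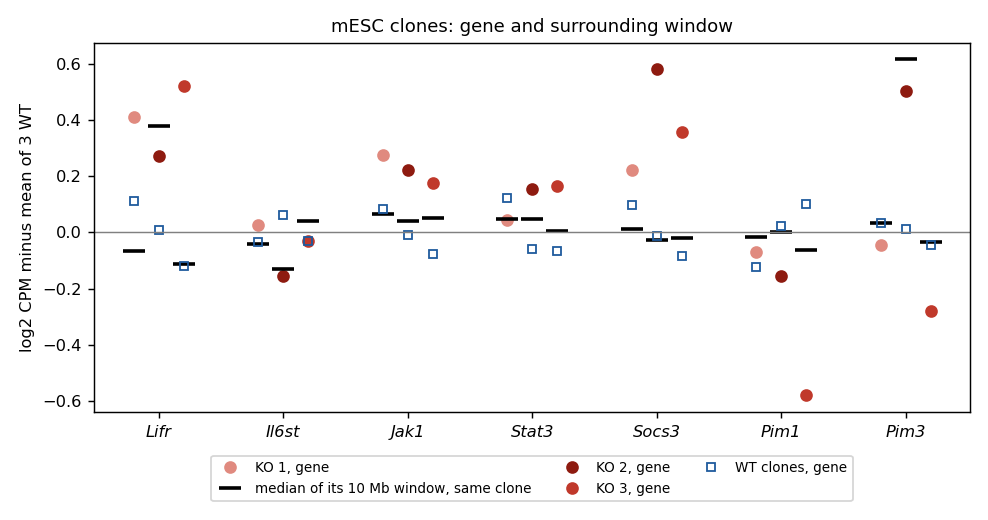
Log2 CPM minus the mean of the 3 IκBα-WT clones (vertical axis) of the 7 genes in each mESC clone, with a black bar at the median gene of the 10 Mb window in the same IκBα-KO clone. In IκBα-KO clone 2 the windows of Lifr (0.38) and Pim3 (0.62) were raised, while those of Socs3 lay near 0 in all 3 clones.

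Of the 48 other pathway genes tested in mESCs, 4 rose and 2 fell in IκBα-KO clones (median log2 fold change 0.05, against 0.01 over all genes tested). Of all genes tested, 3.09% rose and 1.69% fell. Pramel7, a factor of the naïve state, rose by 1.95 (edgeR adjusted p = 0.0205), from 3.10 to 6.78 CPM in IκBα-WT to 13.9 to 25.5 CPM in IκBα-KO clones. The kinases Jak2 and Jak3 rose by 0.79 and 0.67 (edgeR adjusted p = 0.0445 and 0.0201), and Bcl3 by 0.42 (edgeR adjusted p = 0.0436). Pim2 fell by 1.75 (edgeR adjusted p = 0.0223), from 85.3 to 217 CPM to 33.4 to 53.8 CPM, and Mcl1, a survival factor of the BCL2 family, by 0.29 (edgeR adjusted p = 0.0478). In none of these 6 did the genotypes overlap. The medians of the windows around these 6 genes are not given here, and the part of shifted windows in their differences was not tested.

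Over all 18 libraries, Pearson's r of log2 CPM between Stat3 and Socs3 was 0.945, between Socs3 and Pim3 0.861 and between Stat3 and Pim3 0.816. The libraries share their stage, and with the stage means taken off the same values were 0.336, 0.013 and 0.029. For Lifr and Il6st, the pair of receptor chains, r was 0.521 and was 0.787 with the stage means taken off. Among the 13177 genes whose counts averaged 50 or more, the patterns most like that of Stat3 were those of Prkaa2 (0.973) and Yes1 (0.968), and most like that of Socs3 those of Yes1 (0.980) and Pmel (0.975). With the stage means taken off, these values were 0.685 and 0.432 for Stat3 and 0.578 and 0.487 for Socs3. Lifr was most like Tmeff1 (0.970) and St8sia1 (0.961), which with the stage means taken off stood at 0.917 and 0.883. Pim3 was most like Cars (0.970) and Spats1 (0.966), Jak1 like Galnt1 (0.937), and Pim1 like Dnm1l (0.897) and Rpl35a (0.875). Il6st had the least close neighbours, Rell1 (0.785) and Zfp438 (0.784). These genes were the highest of many and are named as a description of these libraries.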

How the data were processed

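Members and lists were chosen with earlier results of these data known. The authors trimmed reads with Trim Galore 0.6.6, aligned them with STAR 2.7.8 to GRCm38, counted reads with a unique position over exons by featureCounts of Subread 2.0.1 and deposited whole-number counts without normalization. Reads shared by near-identical genes are therefore missing. A table of DESeq2-normalized log2 values was deposited as well and not used. In R 4.3.3, edgeR 4.0.16 scaled libraries (TMM) and tested genotype in 6 mESC libraries and stage in 18 libraries with the quasi-likelihood test (robust), on genes that reached 10 counts summed over the fit, with Benjamini-Hochberg adjustment over all genes tested. A gene rose or fell at an adjusted p under 0.05. SE is the absolute log2 fold change over the square root of F. Log2 CPM used a prior count of 2. EB columns were placed by stage only, and a term for genotype was not fitted in EBs. The scripts were tested on simulated data.

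Genes named outside the 7 were Nfkbia, up to 6 pathway genes per comparison with an adjusted p under 0.05 and the largest absolute log2 fold changes, undetected pathway genes, and for each of the 7 the 2 most correlated genes, of which 1 for Jak1 is not reported here. Lif, Sbno2 and Cish, and Pim2, Tfcp2l1 and Junb beside comparisons in which they were not among the 6, were named after their values were seen. Positions are from GENCODE M21 and promoters from RefSeq. No pair of libraries within a group was a duplicate (36 pairs, chi-square per degree of freedom at least 5.47). The codes in the column names were taken to pair the 48 and 96 hr libraries. Deviations from the stage means correlated between libraries of the same clone code (r 0.396 to 0.734). Different codes were not compared, and libraries of 1 genotype may deviate alike, so these values cannot show pairing by clone. Deviations of same-numbered IκBα-WT and IκBα-KO mESCs did not correlate (r -0.158 to 0.0003). Depth (28287582 to 40904247 counts) gave 70 or more counts of each of the 7 genes in every library, so the spread between clones limits precision. Alternatives were DESeq2 1.42.0 size factors and Wald test, other count filters, a fold threshold, each library left out, blocks, window offsets, fewer stages and 1 mESC genotype.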

Additional observations from a re-analysis of the deposited data

How the results depend on the processing

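Of the 7 genes, the number called between mESC genotypes (1) was 2 with the DESeq2 Wald test and 2 with no low-count filter, Socs3 being added, and 0 with a fold over 2 as well, with the replicate block, with the 10 Mb window offset and with IκBα-KO clones 1 and 3 summed as 1 library (chosen after seeing the data). Leaving out 1 clone gave 0 to 3, with 3 without IκBα-KO clone 2 (Lifr, Jak1 and Socs3), where the IκBα-KO group is clones 1 and 3 with the same shifted windows, and 0 without any other. With the replicate block Lifr stood at 0.40 (adjusted p = 0.0839); the replicate numbers do not pair these clones. From 48 to 96 hr the number called (3) was 0 with a fold over 2 as well, and 1 (without the 96 hr library of H9) to 4 with 1 library left out. With 1 library left out it was 3 to 5 at 48 hr against mESCs and 5 in each fit at 96 hr against mESCs, where it was 4 against IκBα-KO mESCs alone (without Pim1) and 4 with a fold over 2 as well. No called gene changed direction under any alternative run. The falls of Stat3, Socs3 and Pim3 against mESCs and the rise of Stat3 from 48 to 96 hr passed under all of them, other than the fold over 2, which the rise of Stat3 did not reach. Lifr at 48 hr against mESCs was at adjusted p = 0.0572 with no low-count filter, 0.0549 against IκBα-KO mESCs alone and 0.0506 without E14 (chosen after seeing the data), and from 48 to 96 hr at 0.0853 with no low-count filter and 0.108 with only the stages compared. The cause was not tested. With the clone code as a block no other call of the 7 changed. Over all genes, 1046 were called between genotypes with edgeR and 2133 with DESeq2.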
